A study of Mus musculus with 8 samples.

Results

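The clustered protocadherin genes of the mouse lie side by side on chromosome 18 in 3 families, Pcdha, Pcdhb and Pcdhg. All RefSeq genes of this cluster whose symbols start with Pcdha, Pcdhb or Pcdhg were taken. That gave 58 genes, from chr18:36930285 to chr18:37841873 in mm10, of the 14631 genes whose first 3 kb were tested in the same data. First 3 kb and start are counted from the lower coordinate in every gene. No strand was used, so outside the cluster this may be the far end of a gene. The table as held here ends within chromosome 5, so that all genes, starts and windows below means those of chromosomes 1 to 4, part of 5, and 10 to 19. There were 14 Pcdha genes (Pcdha1 to Pcdha12, Pcdhac1 and Pcdhac2), 22 Pcdhb genes (Pcdhb1 to Pcdhb22) and 22 Pcdhg genes, of which RefSeq lists Pcdhgb8 as a transcribed pseudogene. Each Pcdhb gene was measured over its whole span. Each Pcdha and Pcdhg gene was measured over the first 3 kb from its lower coordinate, because the higher ends coincide: 13 of 14 Pcdha genes and 21 of 22 Pcdhg genes ended within 10 bases of a common end. The regions measured this way held 114 to 308 listed CpG cytosines each, both strands counted, 11281 in all, and all 58 passed the minimum of 6.

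Protocadherins are cadherin-like cell surface proteins best known from neurons, where each cell uses a small, partly random set of them and the combination helps its branches to tell self from non-self. In Pcdha and Pcdhg, every gene is a large variable exon with its own promoter, spliced to constant exons that the whole family shares at the far end of the cluster, whereas Pcdhb genes are single exons. Promoter choice is known to depend on the DNA-binding protein CTCF, on cohesin and on DNA methylation of the promoters, and the C-type genes (Pcdhac1, Pcdhac2, Pcdhgc3, Pcdhgc4 and Pcdhgc5) are known to be used more uniformly than the others.

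DNA methylation was measured by whole-genome bisulfite sequencing of liver DNA from male C57BL/6J mice of wild-type genotype, an inbred strain, bought at 8 weeks of age and kept for 28 weeks on a normal diet or on a diet rich in fat, cholesterol and fructose. The comparison was of 4 libraries titled NASH, for nonalcoholic steatohepatitis, with 4 titled WT, whose columns in the table are named ND for normal diet. In the labels the field for treatment contradicts the titles: it reads NASH where the title says WT, and WT where the title says NASH. Titles and column names were followed, and by the other field every higher and lower given here would change places. Whether each library is a separate mouse is not stated, so a p-value measures the spread between libraries, which may be technical. Read depth behind the levels is unknown, and mean levels over all 30729668 positions were 71.0% to 72.3% per library. In whole liver, a shift in the share of a cell type and a shift within cells cannot be told apart. Levels below are percent methylation, values after ± are SDs over n = 4 libraries, and a difference is NASH minus ND, in percentage points. Libraries are named by group and replicate, in the order 1 to 4 where values are listed.

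In livers on a normal diet the cluster stood at intermediate levels almost throughout. The mean ND level lay between 20% and 80% in 57 of 58 genes, or 98.3%, with Pcdhgc3 at 4.44% as the exception. Over the first 3 kb this held in 35 of 36 Pcdha and Pcdhg genes (97.2%), against 41.8% of all genes. Over the span it held in 22 of 22 Pcdhb genes, against 74.8% of all gene spans, so the contrast was smaller there. Single positions showed the same: 64.1% of the 11281 positions had a mean ND level between 20% and 80%, against 30.0% of the positions of chromosome 18. CpG-dense positions, those with at least 20 listed positions in 200 bases, made up 49.4% of member positions and 8.26% of chromosome 18. Of these dense positions 64.0% were intermediate in the cluster and 18.9% on chromosome 18, where 59.1% were below 20%. Other gene clusters gave a frame for these levels. The 28 Hox genes read, developmental regulators that also lie in CpG-dense clusters, had a median ND level of 8.22% over their first 3 kb, and 2 of them were intermediate. The 271 olfactory receptor genes of chromosome 2 with enough positions, a CpG-poor cluster, had a median ND level of 79.8%, and 140 of them (51.7%) were intermediate. The clustered protocadherins had a median of 56.3%.

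**Figure D1:**
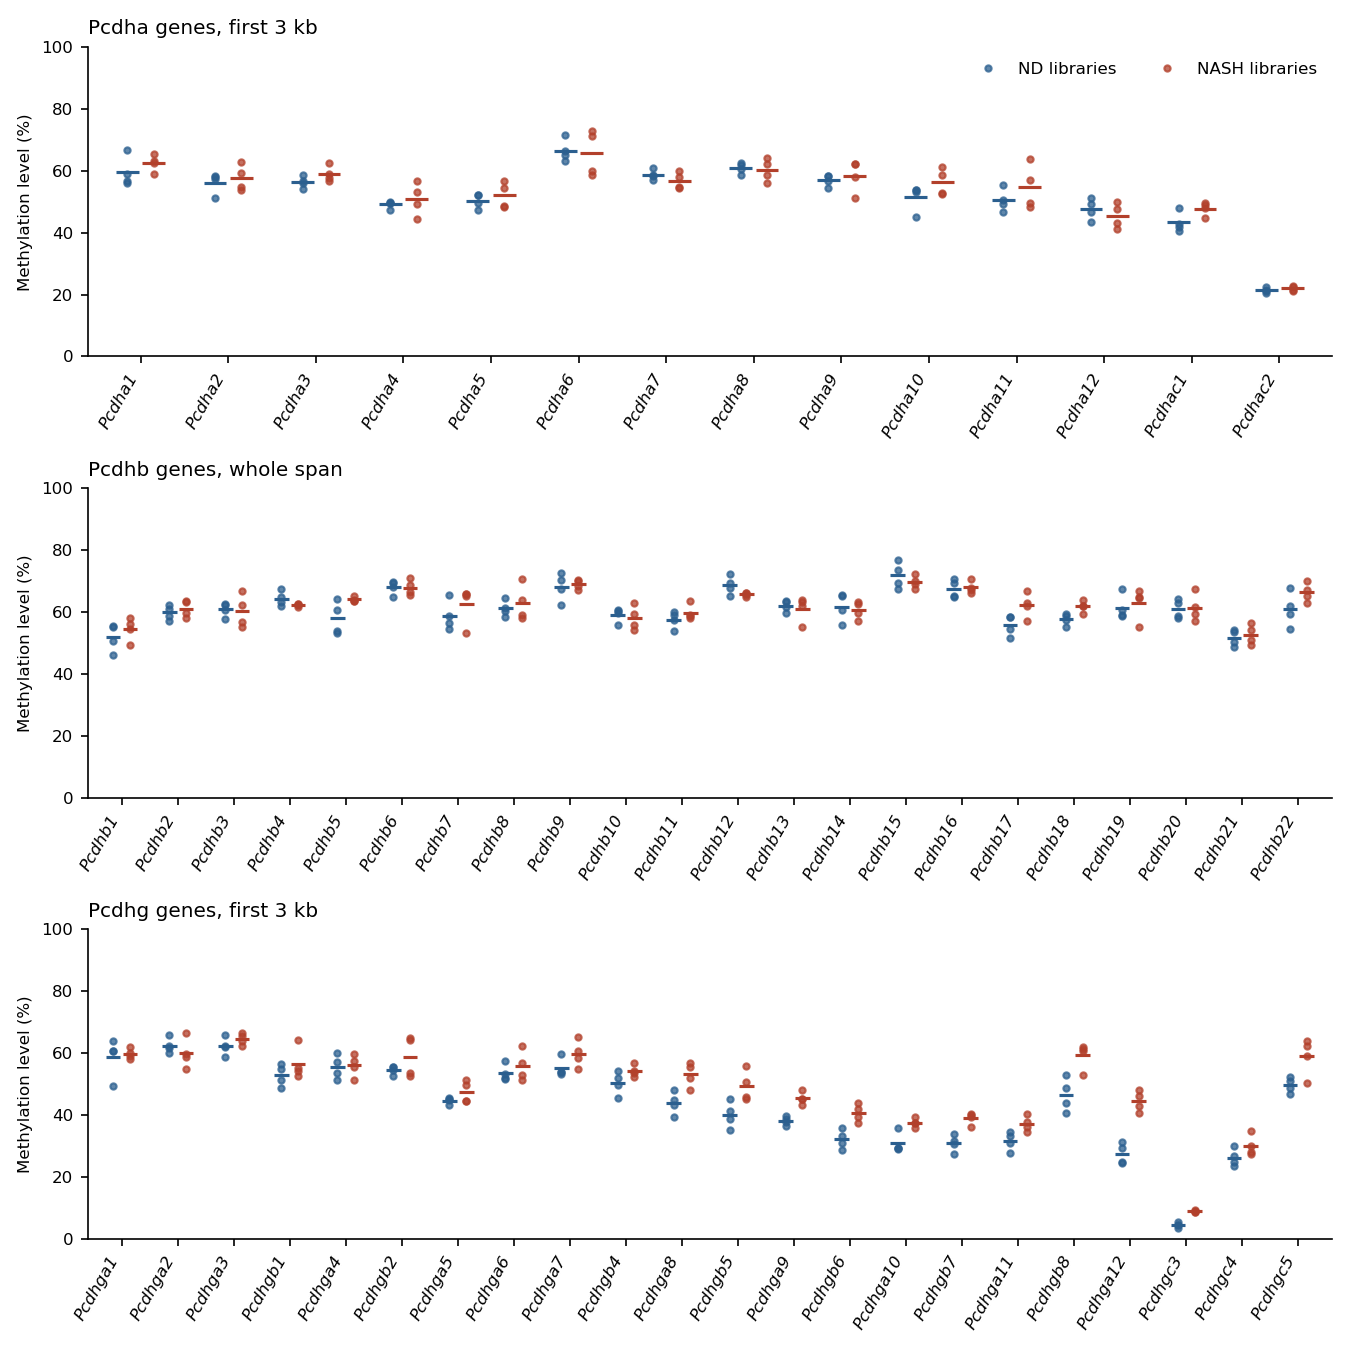
Methylation level of every clustered protocadherin gene in percent, in order along the chromosome, with 1 point per library (n = 4 NASH and n = 4 ND) and short bars at the group means. Pcdha and Pcdhg genes are shown over their first 3 kb and Pcdhb genes over their span; the libraries overlap in all 14 Pcdha genes and in 21 of 22 Pcdhb genes, and are separate in 7 Pcdhg genes toward the right of the cluster.

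The Pcdha genes did not separate the diets. Averaged over the 14 genes, the level was 56.6, 49.7, 51.7 and 56.2% in the NASH libraries and 50.5, 51.7, 53.2 and 52.9% in the ND libraries. Both groups held low and high libraries and their ranges overlapped (53.5% ± 3.42 and 52.1% ± 1.23). No Pcdha gene of 14 was called by limma at an adjusted p under 0.05, where 2.1% of all genes were called over their first 3 kb. At an unadjusted p under 0.05, 1 of 14, Pcdhac1, was higher in NASH, against 8.39% of all genes. Of the differences 10 were positive and 4 negative, from -2.07 to 4.88 points.

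The alternately used Pcdha genes lay within a narrow band. The highest ND levels belonged to Pcdha6 at 66.5% ± 3.56 and Pcdha8 at 60.9% ± 1.70. The first gene of the cluster, Pcdha1, was at 59.6% ± 4.97 in ND and 62.6% ± 2.69 in NASH. Levels did not fall steadily along these genes. Pcdha4 and Pcdha5, at 49.2% ± 1.12 and 50.3% ± 2.27 in ND, were as low as Pcdha10 and Pcdha11, at 51.5% ± 4.24 and 50.5% ± 3.62. Pcdha12 was at 47.6% ± 3.31 in ND and 45.5% ± 4.04 in NASH. The largest positive differences were those of Pcdha10, at 4.88 points (SE 2.81), Pcdhac1, at 4.44 points (SE 1.88), and Pcdha11, at 4.32 points (SE 3.64), with limma adjusted p of 0.442, 0.290 and 0.615. The largest negative ones were those of Pcdha12 at -2.07, Pcdha7 at -1.99 and Pcdha6 at -0.85 points. None of these 6 differences was larger than the spread between libraries allows to be called.

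The NASH libraries often stood in the same order in this family. In Pcdha11 the NASH libraries stood at 63.9, 49.7, 48.4 and 57.2%, and the ND libraries at 46.8, 50.5, 49.3 and 55.4%. NASH 1 and NASH 4 were both above NASH 2 and NASH 3, and the latter 2 lay among the ND libraries. That order, NASH 1 and NASH 4 both above NASH 2 and NASH 3, held in 11 of 14 Pcdha genes (78.6%), in 9 of 22 Pcdhb genes (40.9%), in 9 of 22 Pcdhg genes (40.9%), 5 of them among the 9 from Pcdhga8 to Pcdhga12 (55.6%), and in 13.7% of all genes over their first 3 kb. NASH 1 or NASH 4 was the highest of the 8 libraries in 5 Pcdha genes each, and NASH 2 was the lowest in 5. The order was picked after the values were seen. Pcdhb genes were read over their span, for which the share of all genes was not counted. Neighbouring genes of a cluster are not independent, so the count describes these libraries only.

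The 2 C-type genes at the far end of the Pcdha cluster had the lowest ND levels of the family. Only Pcdhac2 stood clear of the rest, as the NASH mean of Pcdhac1 was above that of Pcdha12, at 45.5%. Pcdhac2 was the least methylated Pcdha gene, with 22.6, 21.4, 22.7 and 21.2% in NASH and 22.5, 21.1, 20.6 and 21.5% in ND. These 8 values lay close together, and the groups overlapped. Pcdhac1 was at 47.8% ± 2.14 in NASH and 43.3% ± 3.24 in ND, with ND 4, at 48.0%, inside the NASH range.

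The Pcdhb genes, each a single exon coding for a whole protocadherin, were the most methylated family and the most even. Averaged over the 22 genes the NASH libraries were at 64.2, 60.1, 61.8 and 63.7% and the ND libraries at 59.7, 61.1, 61.7 and 62.4%. The groups overlapped (62.4% ± 1.87 and 61.2% ± 1.13). Mean ND levels ran from 51.7% in Pcdhb21 and 51.8% in Pcdhb1 to 68.6% in Pcdhb12 and 71.8% in Pcdhb15.

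No Pcdhb gene was called over its span, 0 of 22, where limma called 8.29% of all gene spans at an adjusted p under 0.05. At an unadjusted p under 0.05 there were 3 of 22 (13.6%), all higher in NASH, against 12.1% of all spans. Differences ran from -2.87 to 6.40 points, 14 positive and 8 negative. The 3 largest positive ones were those of Pcdhb17, at 6.40 points (SE 2.33), Pcdhb5, at 6.07 points (SE 2.45), and Pcdhb22, at 5.58 points (SE 2.81), with limma adjusted p of 0.144, 0.182 and 0.282. In Pcdhb17 the NASH libraries stood at 66.6, 63.0, 57.1 and 61.8% and the ND libraries at 51.6, 58.5, 58.4 and 54.3%. The lowest NASH library, NASH 3, was below ND 2 and ND 3, so the groups overlapped.

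The 3 largest negative differences in the family were those of Pcdhb12, at -2.87 points, Pcdhb15, at -2.14 points, and Pcdhb4, at -2.09 points, and none was called. The libraries of the groups were separate in 1 of 22 Pcdhb genes, Pcdhb18, which was named after its values were seen. Libraries separated with NASH higher in 9.45% of all gene spans. Pcdhb18 was at 63.9, 62.0, 61.8 and 59.4% in NASH and 59.2, 58.7, 57.5 and 55.0% in ND, a difference of 4.19 points (SE 1.21) with a limma adjusted p of 0.0807. With the replicate number as a block its adjusted p was 0.0406.

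The Pcdhg genes were the family in which NASH and ND libraries came apart. Averaged over the 22 genes the NASH libraries were at 51.6, 46.7, 47.9 and 49.4% and the ND libraries at 41.8, 43.6, 44.9 and 42.6%. Every NASH library was above every ND library (48.9% ± 2.13 and 43.2% ± 1.31), and 21 of 22 differences were positive. Among the 36 Pcdha and Pcdhg genes, 4 were called by limma, all in Pcdhg and all higher in NASH, or 11.1%, where 2.1% of all genes were called over their first 3 kb and 1.38% were called as higher. The count was 0 without ND 4 and 1 without ND 1, where 3 and 4 of all genes stayed called in place of 307. It was 2 without NASH 1, NASH 3, NASH 4 or ND 2, where 149, 170, 109 and 81 of all genes stayed called. Without ND 3 it was 3 and without NASH 2 it was 4, where 82 and 170 of all genes did. At an unadjusted p under 0.05, 12 of 36 were higher in NASH, against 8.39% of all genes. In 7 of 36 every NASH library was above every ND library, against 5.71% of all genes. Genes of the cluster are neighbours, so these counts are not over independent genes.

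Position in the cluster went with both level and difference. Along the order of the 22 genes the mean ND level fell (Spearman rho = -0.83, n = 22 genes of the same 8 libraries) and the difference grew (rho = 0.73). The cluster was therefore described in 3 stretches, chosen after the values were seen. The first 10 genes, Pcdhga1 to Pcdhgb4, averaged 57.3% ± 3.07 in NASH and 54.9% ± 1.45 in ND, with overlap. The next 9, Pcdhga8 to Pcdhga12, averaged 45.0% ± 1.89 and 35.7% ± 2.20, with no overlap and a difference of 9.32 points. The 3 C-type genes averaged 32.6% ± 2.86 and 26.7% ± 0.964, also with no overlap.

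In the first stretch no gene was called. Pcdhga1 was at 59.8% ± 1.64 in NASH and 58.6% ± 6.43 in ND, and without ND 1, the lowest library at 49.3%, its difference turned to -1.98 points. Pcdhga2, the only Pcdhg gene with a negative difference, was at 59.9% ± 4.84 and 62.4% ± 2.45 (-2.42 points, limma adjusted p = 0.693). Pcdhga3 was at 64.5% ± 1.83 and 62.2% ± 2.92. All 3 overlapped between the groups.

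**Figure D2:**
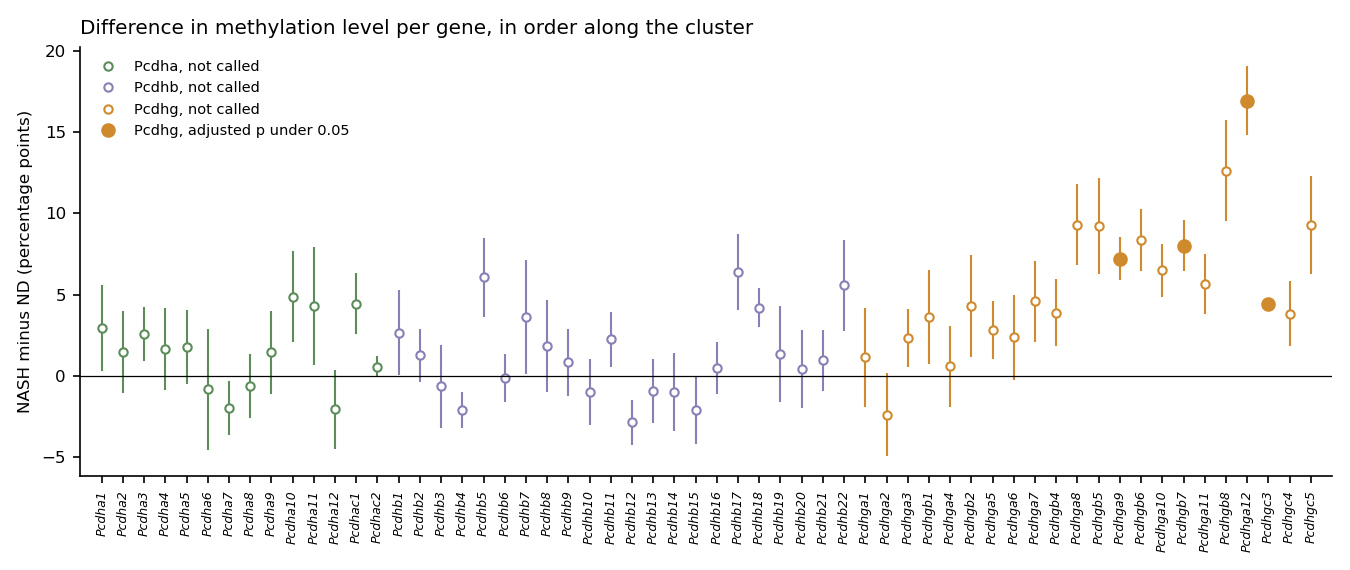
Difference in methylation level, NASH minus ND in percentage points, for each of the 58 genes in order along the cluster; filled points are the genes with a limma adjusted p under 0.05 and open points the others, with bars of 1 SE. Pcdha and Pcdhb genes scatter around 0 between -2.87 and 6.40 points, and the Pcdhg genes from Pcdhga8 on lie above 0, with Pcdhga12 at 16.9 points the highest.

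Pcdhga12, the last gene before the C-type genes, had the largest difference of all 58. Its NASH libraries were at 46.0, 40.6, 42.9 and 48.0% and its ND libraries at 29.3, 24.7, 31.1 and 24.6%, over 308 positions. The groups were separate, with the lowest NASH library well above the highest ND library. The difference was 16.9 points (SE 2.12) with a limma adjusted p of 0.0173, and 87.3% of its positions were higher in NASH. Calls for this gene were lost without ND 1 (adjusted p = 0.0570) and without ND 4 (adjusted p = 0.0523), with every zero left out (adjusted p = 0.0743) and with the replicate block (adjusted p = 0.106), the difference ranging from 11.98 to 17.6 points in these 4. Of all genes, 4 stayed called without ND 1, 3 without ND 4, 110 with every zero left out and 0 with the replicate block.

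Pcdhga9 and Pcdhgb7 were called as well, with smaller differences. Pcdhga9 was at 45.2, 43.1, 45.0 and 48.2% in NASH and 36.4, 39.7, 38.8 and 37.7% in ND, a difference of 7.21 points (SE 1.33) with a limma adjusted p of 0.0410. Pcdhgb7 was at 39.3, 40.0, 36.0 and 40.2% in NASH and 31.5, 30.6, 33.8 and 27.4% in ND, a difference of 8.03 points (SE 1.57) with a limma adjusted p of 0.0472. The groups were separate in both genes, and in both the call lay close to the threshold: it held in 6 of 16 alternatives for Pcdhga9 and in 4 of 16 for Pcdhgb7. The direction was the same in all 16 for each. With each 250-base bin left out in turn, also chosen after the values were seen, the call of Pcdhga9 was lost without the bin at 0, 250, 750 or 1000 bases (limma adjusted p up to 0.124). That of Pcdhgb7 was lost without the bin at 250, 1000, 1500, 2000 or 2750 bases (up to 0.0837), while Pcdhga12 stayed called without any 1 of its 12 bins (up to 0.0357).

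Their neighbours had differences of like size without a call. Pcdhgb8, the pseudogene next to Pcdhga12, was at 61.4, 52.9, 61.9 and 60.6% in NASH and 53.0, 43.7, 48.8 and 40.8% in ND. Its NASH 2 library lay just below its ND 1 library, so that the groups overlapped, and the difference of 12.7 points (SE 3.14) had a limma adjusted p of 0.0913. Pcdhga8 differed by 9.31 points (SE 2.50, adjusted p = 0.112) and was at 53.0% ± 3.96 in NASH and 43.7% ± 3.66 in ND. Of the other 4 genes of the stretch, named after their values were seen, Pcdhgb5 differed by 9.23, Pcdhgb6 by 8.39, Pcdhga10 by 6.50 and Pcdhga11 by 5.65 points, with limma adjusted p from 0.0739 to 0.170. The libraries were separate in Pcdhgb6, Pcdhga10 and Pcdhga11 and overlapped in Pcdhgb5. NASH 1 and NASH 4 were above every ND library in all 9 genes from Pcdhga8 to Pcdhga12, NASH 2 in 8 and NASH 3 in 7.

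Zeros moved with this result. In the deposited levels an exact 0 can be an unmethylated position or one without reads. Zeros made up 15.9% of values in NASH and 24.5% in ND from Pcdhga8 to Pcdhga12. Doubtful zeros, a 0 whose 10 nearest positions had a median of 50% or more, made up 2.91% and 2.17%. With every zero left out no Pcdha or Pcdhg gene was called, and the mean difference over the 22 Pcdhg genes was 3.96 in place of 5.66 points; with only the doubtful zeros left out, 4 genes were called. The part of missing reads in the zeros was not tested.

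The 3 C-type genes at the end of the Pcdhg cluster had very different levels. Pcdhgc3 was the least methylated member of all, with 8.98, 8.58, 9.27 and 8.54% in NASH and 3.54, 5.25, 4.46 and 4.52% in ND over 302 positions. The groups were separate over these 3 kb. The difference of 4.40 points (SE 0.415) had a limma adjusted p of 0.0146, the smallest of the 58 genes; without ND 4 it was 0.0506, over the first 2 kb alone 0.108, with every zero left out 0.205 and with the replicate block 0.106. The narrow range of the NASH libraries rested on 1 bin of 46 positions, 500 to 750 bases inside, where NASH 4 was at 19.6% and the other 7 libraries at 0 to 3.08%. Without that bin, left out after the values were seen, NASH was at 10.4, 9.99, 10.8 and 6.56% and ND at 3.68, 5.64, 5.26 and 5.26%. The groups were still separate, with a difference of 4.50 points (SE 0.966), and the limma adjusted p was 0.0641.

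Pcdhgc4 was at 30.0% ± 3.38 in NASH and 26.2% ± 2.89 in ND and was not called (3.83 points, limma adjusted p = 0.396). Pcdhgc5, the last gene, was at 59.0, 50.3, 64.0 and 62.3% in NASH and 51.0, 52.3, 46.6 and 48.6% in ND. NASH 2 lay within the ND range, and the difference of 9.28 points had a limma adjusted p of 0.174. Without NASH 2 it was 12.1 points with a limma adjusted p of 0.0493, and no other alternative run called this gene.

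The sequence around the start of each gene, from 1000 bases outside to 500 inside the lower coordinate, gave another reading. RefSeq as used here gave no strand. In all 3 families the promoters are known to lie at this end. The shares of all starts below may mix promoter ends with far ends of genes. No member start was called, 0 of 58, where limma called 0.0206% of all gene starts; at an unadjusted p under 0.05, 11 (18.97%) were higher and 1 (1.72%) lower in NASH, against 6.42% and 6.54% of all starts. Starts were separate with NASH higher in 6 of 58, against 4.12% of all starts: Pcdha2, Pcdhac1, Pcdhb17, Pcdhgb2, Pcdhga8 and Pcdhga11, named because the count is small. None was separate with NASH lower. The Pcdhga11 start was at 34.4, 29.3, 32.6 and 25.8% in NASH and 23.2, 22.3, 21.5 and 19.6% in ND (8.90 points, SE 1.99, limma adjusted p = 0.125).

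The start averages repeated the order of the families seen over the longer regions. Pcdha starts were at 37.1% ± 2.78 in NASH and 35.6% ± 1.21 in ND, and Pcdhb starts at 46.8% ± 1.502 and 46.6% ± 0.839. Pcdhg starts were at 31.4% ± 1.99 and 27.0% ± 0.918, with no overlap. From Pcdhga8 to Pcdhga12 the starts were at 31.6% ± 2.11 in NASH and 24.9% ± 1.09 in ND, and from Pcdhga1 to Pcdhgb4 at 33.5% ± 2.43 and 30.1% ± 1.01, both separate. C-type starts were nearly unmethylated in 3 of 5 genes: in ND, Pcdhac2 was at 3.57% ± 1.30, Pcdhgc3 at 3.41% ± 1.14 and Pcdhgc4 at 5.51% ± 4.47, where ND 4 alone read 12.2%. The Pcdhac1 start was at 23.4% ± 1.18 and that of Pcdhgc5 at 60.1% ± 3.84 in ND.

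**Figure D3:**
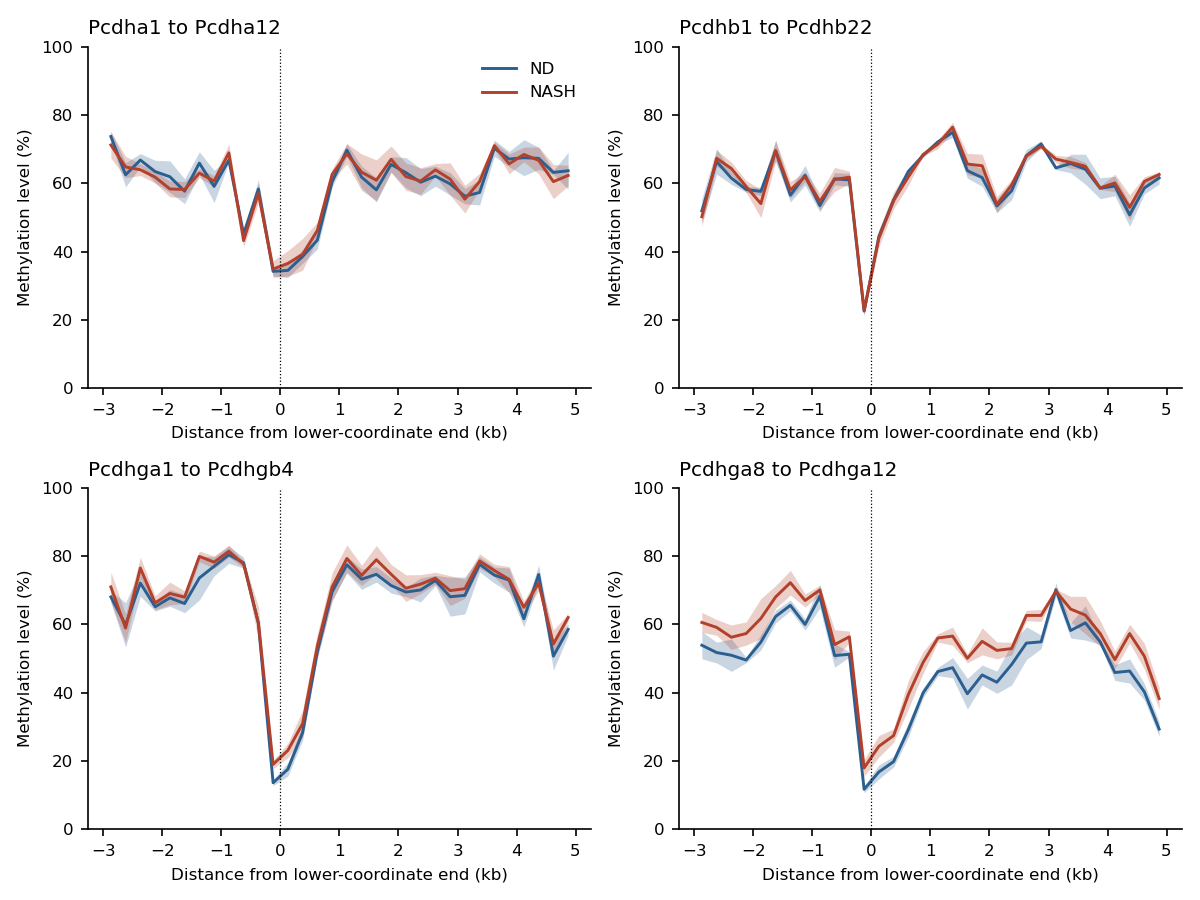
Mean methylation level in percent by distance from the lower-coordinate end in kb, in bins of 250 bases, averaged over the genes of each stretch; lines are means and bands SDs over n = 4 NASH and n = 4 ND libraries. Each set of genes has a dip just outside the end, to 22.6% in Pcdhb and 11.7% in Pcdhga8 to Pcdhga12 in ND, and the NASH and ND libraries are separate in 22 of 32 bins of Pcdhga8 to Pcdhga12, in 3 of 32 of Pcdhga1 to Pcdhgb4, in 1 of Pcdhb and in 0 of Pcdha. The Pcdhg stretches were chosen after the gene differences were seen, so their bin counts partly repeat that choice. The share of separate bins over other genes was not measured.

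Each family had a dip at its starts and higher levels on both sides, and the dip differed in depth and width. In the 250 bases just outside the end the ND level was 34.2% ± 1.37 for Pcdha1 to Pcdha12, 22.6% ± 1.33 for Pcdhb, 13.6% ± 0.851 for Pcdhga1 to Pcdhgb4 and 11.7% ± 0.9999 for Pcdhga8 to Pcdhga12. In Pcdhb the level rose to 74.96% ± 1.52 in the bin that begins 1250 bases inside, and in Pcdhga1 to Pcdhgb4 to 77.5% ± 2.47 in the bin that begins 1000 bases inside. From Pcdhga8 to Pcdhga12 the same bin at 1000 bases reached 46.2% ± 1.19 in ND and 56.0% ± 1.22 in NASH.

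The difference took another course in the 2 Pcdhg stretches, which were chosen after the gene differences were seen. In Pcdhga1 to Pcdhgb4 the groups were separate at the dip, with 18.97% ± 1.21 in NASH and 13.6% ± 0.851 in ND just outside the end and 23.1% ± 2.09 and 17.6% ± 2.003 just inside. They overlapped from 250 bases inside onward until the last bin plotted. In Pcdhga8 to Pcdhga12 they were separate at the dip, with 17.9% ± 2.41 in NASH and 11.7% ± 0.9999 in ND, and stayed so in each bin up to 2250 bases inside. They were also separate in several bins more than 1000 bases outside, where the preceding gene's exon may lie.

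Inside Pcdhga12 the difference was spread over the first 3 kb. The NASH mean was above the ND mean in all 12 bins of 250 bases, by 6.52 to 27.8 points, and the libraries were separate in 4 of them. One was the bin that begins 1000 bases inside, at 44.0% ± 5.53 in NASH and 20.9% ± 6.31 in ND over 40 positions. Another was the bin at 2500 bases, at 38.9% ± 7.93 and 11.1% ± 3.85 over 36 positions. Between these bins, at 1500 bases, levels were higher and overlapped, at 51.7% ± 8.85 and 43.2% ± 11.2 over 16 positions. The start of the gene, with 32 positions, was at 50.7% ± 5.89 and 44.1% ± 2.64, and there the groups overlapped (limma adjusted p = 0.431).

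Pcdhgc3 was close to unmethylated at its end and rose with distance. In the first 250 bases inside, it was at 0.441% ± 0.294 in NASH and 1.77% ± 1.57 in ND. In the bin at 1750 bases, with 28 positions, the NASH libraries were at 14.4% ± 7.67 and the ND libraries at 4.45% ± 1.22, with no overlap. In the bin at 2500 bases, with 10 positions, they were at 26.4% ± 9.82 and 14.2% ± 3.93 and overlapped. Beyond 3 kb the gene was highly methylated, and the bin at 4000 bases, with 6 positions, was lower in NASH, at 84.3% ± 4.15 and 91.9% ± 1.89. Over its start the direction was the other way, at 2.35% ± 0.622 in NASH and 3.41% ± 1.14 in ND, with overlap and a limma adjusted p of 0.519.

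**Figure D4:**
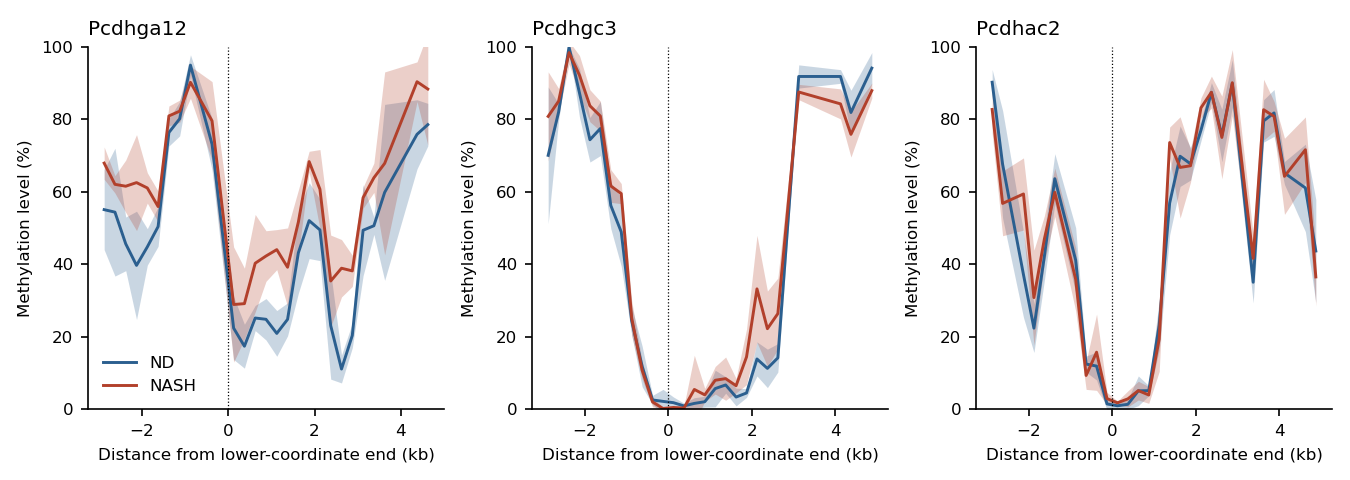
Methylation level in percent by distance from the lower-coordinate end in kb for Pcdhga12, Pcdhgc3 and Pcdhac2, in bins of 250 bases, with lines at the means and bands of SD over n = 4 libraries of each group. In Pcdhga12 the NASH line is above the ND line from the end to 3 kb inside, in Pcdhgc3 both lines are near 0 at the end, with NASH above ND from 500 bases to 3 kb inside and below it beyond 3 kb, and in Pcdhac2 the groups are separate in 2 of 28 bins, both with NASH higher. At 500 bases in Pcdhgc3 the NASH mean rests on NASH 4, at 19.6%, with the other NASH libraries at 0.544 to 0.906%. Its groups are separate with NASH higher in 1 of 11 bins of the first 3 kb.

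Windows of 1 kb across the cluster and its flanks gave the differences without gene boundaries. None of the 954 windows was called, with a smallest limma adjusted p of 0.0696, where 0.000435% of all 1609832 windows were called. At an unadjusted p under 0.05, 76 windows (7.97%) were higher in NASH and 28 (2.94%) lower, against 4.33% and 6.58% of all windows. The window with the largest positive difference, chr18:37768001-37769000, holds the end of the first 3 kb of Pcdhga12. It stood at 38.4, 42.6, 47.2 and 42.4% in NASH and 22.0, 22.3, 26.0 and 19.8% in ND, a difference of 20.1 points (SE 2.22). The next ones were chr18:37763001-37764000 in the first 3 kb of Pcdhgb8, at 61.4% ± 7.51 and 43.5% ± 8.79, and chr18:37766001-37767000 in that of Pcdhga12, at 41.0% ± 5.52 and 23.3% ± 3.28; the groups overlapped in the former and not in the latter.

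The largest negative window differences lay elsewhere. The window chr18:37848001-37849000 in Diaph1, a regulator of actin filaments that lies next to the Pcdhg cluster and is no member, was at 52.0% ± 9.17 in NASH and 73.1% ± 1.38 in ND. The window chr18:36987001-36988000, between the first 3 kb of Pcdha7 and of Pcdha8, was at 29.9% ± 21.2 and 45.5% ± 15.5, with NASH 2 at 61.4% and the other NASH libraries at 15.7 to 21.9%. The third, chr18:37399001-37400000, just before Pcdhb9, was at 44.8% ± 6.88 and 58.9% ± 4.36 over 6 positions.

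Windows of 5 kb, an alternative fixed with the others, called 3 of 220 in the same stretch, or 1.36%, where 0.59% of all 365366 windows of that size were called. These were chr18:37765001-37770000 around Pcdhga12, at 45.9% ± 2.93 in NASH and 29.5% ± 2.89 in ND (limma adjusted p = 0.0166), and chr18:37805001-37810000 around Pcdhgc3, at 9.95% ± 0.234 and 6.62% ± 0.453 (adjusted p = 0.0132). The window around Pcdhgc3 holds the bin of that gene where NASH 4 alone was at 19.6%, and its call without that bin was not tested. The third was lower in NASH, chr18:37845001-37850000 in Diaph1, at 72.8% ± 2.99 and 82.3% ± 1.37 (adjusted p = 0.0419).

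The sequence that the families share, and the gaps between them, held no separated groups. The last 3 kb of the Pcdha cluster, known to hold a constant exon, was at 70.1% ± 2.68 in NASH and 67.5% ± 5.96 in ND, and that of the Pcdhg cluster at 75.8% ± 2.95 and 79.7% ± 2.90. Between the first 3 kb of Pcdhga12 and Pcdhgc3, a stretch of 37830 bases flanked by 2 called genes, the level was 74.4% ± 0.462 and 72.9% ± 0.865. The stretch between Pcdhb22 and Pcdhga1 was at 62.9% ± 1.399 and 63.0% ± 1.37.

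CpG density, level and difference were related to different extents in the families. Members held 26.2 to 102.7 listed positions per kb, most in Pcdhga12 and fewest in Pcdhb16. Between density and mean ND level Spearman's rho was -0.66 over the 22 Pcdhg genes, -0.25 over the 22 Pcdhb genes and -0.11 over the 14 Pcdha genes, which share the same 8 libraries. Over all 58 it was -0.60, a value that mixes families of different density. Between ND level and difference rho was -0.61 in Pcdhg, -0.70 in Pcdhb, -0.23 in Pcdha and -0.70 over all 58, and the ND values enter both of these measures. Within the stretch from Pcdhga8 to Pcdhga12, chosen after its differences were seen, both kinds of position were separate between the groups. Dense ones were at 40.2% ± 1.98 in NASH and 29.1% ± 2.54 in ND, and sparse ones at 50.8% ± 2.28 and 43.3% ± 1.88.

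**Figure D5:**
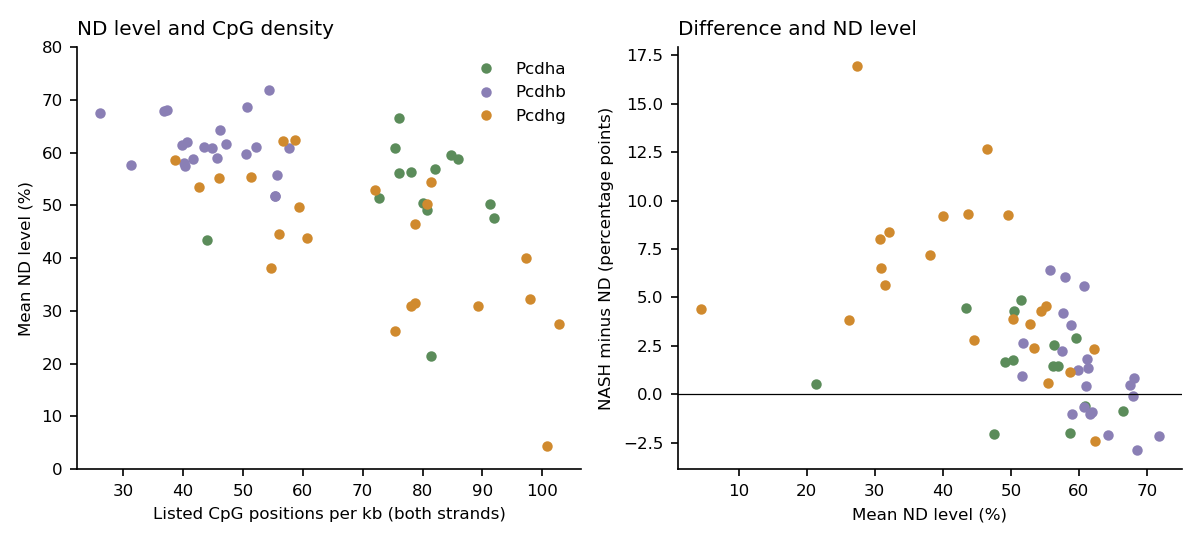
Left, mean ND level in percent against listed CpG positions per kb for the 58 genes; right, NASH minus ND difference in percentage points against mean ND level, with the 3 families in different colours. Pcdhb genes sit at few positions per kb and high levels, and the genes with the largest differences are Pcdhg genes with ND levels between 27.4% and 49.6%.

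Protocadherins outside the cluster and a set of cohesin, CTCF, DNA methylation and other chromatin genes were described from 2 lists. Of 12 non-clustered protocadherins 10 were measured; none was called over its first 3 kb (1, Pcdh20, had an unadjusted p under 0.05), and their mean was 36.6% ± 0.684 in NASH and 36.4% ± 0.819 in ND. Over the span 1 was called, Pcdh12, a protocadherin of endothelial cells, at 71.1% ± 1.32 in NASH and 75.3% ± 1.51 in ND (limma adjusted p = 0.0359). Of 20 regulators 13 were measured, among them the cohesin subunits Rad21 and Smc3 and the DNA methyltransferases Dnmt3a and Dnmt3b; Ctcf and Dnmt1 were not analysed here. None of the 13 was called over its span, and 1, Wapl, which releases cohesin from DNA, had an unadjusted p under 0.05 (2.25 points, limma adjusted p = 0.0835). Over the first 3 kb from the lower coordinate, which may be either end of these genes, 1 of 13 was called, where 2.1% of all genes were. This was Nipbl, the cohesin loader, at 80.8% ± 3.28 in NASH and 72.3% ± 0.816 in ND (limma adjusted p = 0.0499). At an unadjusted p under 0.05 Nipbl was the 1 higher, and 3 were lower, Dnmt3b by -1.63, Setdb1 by -5.25 and Smchd1 by -3.13 points, where 8.3% of all genes were lower.

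Marker genes of liver cell types moved between the groups too, read over spans, of which 5.54% of all were called as higher and 2.75% as lower. Hepatocyte markers had higher spans in NASH in 9 of 9 measured genes (of 12 listed), all called by limma, with a mean of 46.1 to 51.5% in the NASH libraries and 35.7 to 37.8% in the ND libraries. Over the first 3 kb, the region read for Pcdhg, 9 of 9 were higher and 1 was called, where 1.38% of all genes were called as higher. In that region 1 of 7 macrophage and 1 of 7 neutrophil markers were called as lower, where 105 of all 14631 genes were. Library means there were separate and lower in NASH for macrophage (69.1 to 71.1% against 72.7 to 77.0%) and endothelial markers (59.0 to 62.2% against 62.9 to 64.7%). They overlapped for neutrophil, lymphocyte, stellate cell, cholangiocyte and neuron markers. Over spans, macrophage markers had 1 of 7 called as lower (66.5 to 67.8% against 68.9 to 71.2%), neutrophil markers 2 of 7 and stellate cell markers 1 of 7, also lower. The library means of the neutrophil and of the stellate cell markers overlapped between the groups. None was called among 3 lymphocyte, 5 endothelial, 6 cholangiocyte and 4 neuron markers measured. The lymphocyte means were still separate, at 76.0 to 77.4% in NASH and 78.0 to 79.3% in ND. The neuron markers, of a cell type in which clustered protocadherins are best known, were at 72.5 to 74.1% in NASH and 72.7 to 74.5% in ND. The part of the cell mix in the Pcdhg result was not tested.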

How the data were processed

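The authors deposited 1 table of percent methylation per CpG cytosine, each strand on its own row, with 8 library columns and no read counts. Per the submitters' processing notes the build was mm10 and FastQC was run; the sources used here give no aligner, no caller and no treatment of reads that match several protocadherin genes. The table as held here ends within chromosome 5, where 1 incomplete line was left out. Chromosomes 1 to 4, the listed part of 5, and 10 to 19 were read, 15 in all; the others were not analysed here. Gene positions came from RefSeq GRCm38.p6. On chromosome 19 the listed positions were 1 above the CpG coordinates of RefSeq promoters (100% of 28912 matched), and coordinates are printed as deposited.

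Each region was given, per library, the plain mean of its levels. All gene regions or windows with at least 6 positions were fitted together with limma 3.58.1 in R 4.3.3 (mean-dependent prior variance, Benjamini-Hochberg adjustment over all of them, 2-sided), and calls were made at an adjusted p under 0.05. The procedure was tested on simulated data. Members and lists were chosen with earlier results of these data known. Genes named were all called members, the 3 largest differences in each direction, the 2 highest and 2 lowest ND levels and the first and last gene of each family, and the C-type genes. RefSeq genes Gm37013, Gm38666 and Gm38667, which share ends with Pcdha genes, were in the fit and are no members. Deviations of same-numbered libraries correlated no more strongly than those of other pairs, so replicate numbers were not used as pairs in the main fit. A pairing limited to some regions was not tested. Alternatives covered a logit scale, zeros, the position minimum, a replicate block, constant prior variance, region lengths and each library left out. Leaving out single bins of the called genes was added after seeing the data.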

Additional observations from a re-analysis of the deposited data

Results flagged for a closer look

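Each member's 4 NASH and 4 ND values were checked for a library set apart from the other 3 by Dixon's criterion, which flags about 1 in 20 groups by chance. Of 116 groups 7 had such a library. In ND it was ND 2 in Pcdha2 at 51.2%, ND 3 in Pcdha4 at 47.5% and ND 1 in Pcdha10 at 45.1%, all below the other ND libraries. ND 3 stood above the others in Pcdhga7 at 59.5% and in Pcdhga10 at 35.6%. In NASH it was NASH 2 in Pcdhb7 at 53.1% and in Pcdhgb8 at 52.9%, both below the other NASH libraries. Pcdhga10 without ND 3 differed by 8.09 points with a limma adjusted p of 0.0394.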

How the results depend on the processing

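Calls among Pcdha and Pcdhg genes depended on the processing, whereas the mean difference of each family stayed positive in the alternatives run. The count of 4 became 2 on the logit scale, 0 with every zero left out, 0 with the replicate block (with 2235 of all genes at an unadjusted p under 0.05) and 2 over the first 2 kb, and 6 over the first 5 kb; with each library left out it ranged from 0 to 4. For all genes over their first 3 kb, 307 calls became 110 with every zero left out, 0 with the replicate block, 186 over 2 kb, 535 over 5 kb and 3 to 170 with each library left out. Pcdhb spans had 0 calls and 1 with every zero left out (Pcdhb17, limma adjusted p = 0.0410) or with the replicate block (1, Pcdhb18); for all spans, 1213 calls became 235 and 343, and 605 to 1150 with each library left out. Same-numbered libraries correlated at -0.0124, -0.0119, 0.0325 and -0.00397 in their deviations, and 2 of 8 libraries correlated best with their own number. Member starts stayed at 0 calls in every alternative run, where all starts had 3 calls (1887 at an unadjusted p under 0.05), 7 with doubtful zeros left out, 70 with constant prior variance, 0 with every zero left out or the replicate block and 0 to 4 with each library left out. Windows of 1 kb stayed at 0 calls in the cluster and had 3 with 5 kb; over all chromosomes read, 7 called windows became 0 with the replicate block, 0 with constant prior variance, 36 on the logit scale, 23 with doubtful zeros left out, 1663 with every zero left out and 9 to 28 with each library left out. The mean Pcdhg difference stayed within 3.96 to 6.41 points, that of Pcdha within 0.448 to 2.76 and that of Pcdhb within 0.489 to 2.01. Of 510 recomputed member differences 464 kept direction and side of the threshold. In 10 the sign changed, all of differences not called: Pcdha6 (0.238 with every zero left out, and -3.28 to 1.51 with libraries left out), Pcdha8 (-1.90 to 0.74), Pcdhac2 (-0.0186 with every zero left out), Pcdhb21 (-0.27 to 2.06) and Pcdhga1 (-0.398 over the first 2 kb, and -1.98 to 2.91 with libraries left out). The cause was not tested. With each 250-base bin of a called gene left out in turn, chosen after seeing the data, the call stayed for Pcdhga12 in 12 of 12, Pcdhga9 in 8 of 12, Pcdhgb7 in 7 of 12 and Pcdhgc3 in 10 of 11, lost without the bin at 500 bases (4.50 points, limma adjusted p = 0.0641). Read depth is unknown, so precision within a library could not be given.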
